A study of Mus musculus with 24 samples.

Results

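Mouse genes named *Spata* (spermatogenesis associated) or *Tex* (testis expressed) followed by a number were taken as a group. The rule read their symbols and not their levels, and it left out *Tex12*. Of 24456 genes counted, 50 met this rule, 24 *Spata* and 26 *Tex*. They lay on 17 chromosomes, 5 of them on X, and were placed on mouse build mm10 with GENCODE M21, 48 by symbol and 2 by a RefSeq synonym (*Tex13* as Tex13b and *Tex40* as Catsperz). All but the transcript *Spata5l1* were annotated as protein coding, and the merged exon length ranged from 506 to 10088 bases with a median of 2109.5. In the tests 49 took part, because *Tex28* had 1 to 17 counts in a library and did not pass the filter on low counts.

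Whole testes of male mice were compared at days 20, 22, 24 and 26 after birth between WT (wild type) mice and mice with both *Atad2* copies knocked out (KO), with 4 libraries per genotype at days 20 and 22 and 2 per genotype at days 24 and 26. These numbers follow the labels, and the written description of the study gives fewer libraries for the youngest age. ATAD2 is a bromodomain AAA ATPase of chromatin that is abundant in male germ cells. The KO allele carries a lacZ trapping cassette and lost an exon and the neo cassette by a cross to mice with Cre under the ubiquitous CMV promoter and the first exons fused to β-galactosidase, so the altered allele is not limited to germ cells. The labels name no treatment. The labels number the replicates without tying them to animals, so the p-values measure the spread between these samples.

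In the first wave of spermatogenesis the germ cells advance nearly together, so each added day brings a more mature cell type into the testis: spermatocytes, which carry out meiosis, are followed by haploid round spermatids and then by elongating spermatids, in which the tail is built and histones are replaced. *Spata* and *Tex* are names given to genes found by their expression in testis, and the proteins do not form a family. Some act in meiosis, some in the acrosome, midpiece or flagellum of sperm, some are active in many tissues, and for many no molecular role was assigned here.

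The libraries held 10709667 to 19491935 assigned read counts, of which the 50 genes took 0.383% to 0.769%. *Atad2* itself read 76.1 to 171 CPM (counts divided by the TMM-corrected size of the library) in WT libraries and 30.8 to 53.0 CPM in KO libraries, without overlap. The labels name testis as the tissue but also a purification of spermatogenic cells, and markers of spermatogonia, spermatocytes, Sertoli, Leydig and peritubular cells had counts in every group. Hbb-bs, Hbb-bt, Hba-a1 and Hba-a2 of the blood list were at 0 throughout, while the whole list summed to 4.4 to 14.9 CPM between libraries. The 1 tested blood marker was higher in KO by its fitted log2 fold changes at days 20, 22, 24 and 26 (0.74, 0.46, 0.21 and 0.08), with 0 called. Summed over 2 tested epididymal markers and 2 others of that list, the level ran from 0 to 716 CPM between libraries. In bulk tissue, fewer cells of a type and less RNA per cell cannot be told apart. Libraries are named by genotype, day and replicate number. WT_d20_2 stood apart from the other 3 WT libraries of its day, with fewer round spermatid marker counts (22.5 CPM summed over 8 markers, against 53.2 to 67.0 CPM) and more *Tex15* (2130 CPM, against 733 to 927 CPM). Of all libraries it also had the fewest assigned counts (10709667) and the lowest TMM factor (0.887). Its share of pairs not uniquely aligned was 13.7%, against at most 9.16% in the others.

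Because many of the 50 genes moved together with age, their promoters were looked at first. RefSeq windows of 300 bases on GRCm38.p6 (250 bases before and 50 after a start site) were available for 40 of them, 49 windows in all. Both strands were searched for TGACGT, part of the cAMP response element (CRE) that is bound by CREM in spermatids, and for GTTGCC, part of the X-box bound by RFX factors, and the letters of these motifs do not overlap. The first was found in 6 of the 49 windows (12.2%) and in 7.51% of 32851 windows of all genes. The second was found in 10 of the 49 (20.4%) and in 12.5% of all. Among the 10 were 3 overlapping windows of *Tex35* that hold the same letters, so this site was counted 3 times. Of the 18 genes with a window that rose by 16-fold or more between days 20 and 26 in WT, 3 had the first motif and 5 the second, against 3 and 3 of the 21 others. Windows of 5 strongly rising genes with a match are shown, since they differ in which of the 6-letter motifs they hold and where. A match describes these letters only, which are a part of each element and not the whole. *Spata24*, *Spata2l*, *Tex11*, *Tex13*, *Tex13a*, *Tex15*, *Tex22*, *Tex24*, *Tex40* and *Tex43* were not looked at in this way. The motif, on either strand, is in capitals.
Tex37: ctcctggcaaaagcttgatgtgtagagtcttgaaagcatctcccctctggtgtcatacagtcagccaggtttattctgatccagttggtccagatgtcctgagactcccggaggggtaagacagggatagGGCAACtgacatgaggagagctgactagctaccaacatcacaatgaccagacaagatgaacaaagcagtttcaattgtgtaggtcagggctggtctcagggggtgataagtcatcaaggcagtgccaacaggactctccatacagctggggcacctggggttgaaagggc
Tex33: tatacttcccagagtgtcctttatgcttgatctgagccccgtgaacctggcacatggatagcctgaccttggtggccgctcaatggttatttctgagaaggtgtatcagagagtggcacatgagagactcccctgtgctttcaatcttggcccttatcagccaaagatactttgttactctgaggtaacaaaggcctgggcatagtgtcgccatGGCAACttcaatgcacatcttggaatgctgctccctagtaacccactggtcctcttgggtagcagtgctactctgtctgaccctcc
Tex36: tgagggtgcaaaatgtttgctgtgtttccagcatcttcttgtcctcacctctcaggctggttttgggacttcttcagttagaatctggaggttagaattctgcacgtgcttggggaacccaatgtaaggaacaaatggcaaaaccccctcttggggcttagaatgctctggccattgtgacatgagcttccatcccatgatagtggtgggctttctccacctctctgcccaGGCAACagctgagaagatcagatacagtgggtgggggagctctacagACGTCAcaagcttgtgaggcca
Spata32: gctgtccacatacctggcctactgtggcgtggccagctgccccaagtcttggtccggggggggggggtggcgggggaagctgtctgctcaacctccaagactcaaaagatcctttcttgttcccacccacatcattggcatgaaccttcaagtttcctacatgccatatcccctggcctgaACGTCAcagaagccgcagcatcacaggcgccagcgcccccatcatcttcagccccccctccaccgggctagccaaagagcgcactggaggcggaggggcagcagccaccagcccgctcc
Spata18: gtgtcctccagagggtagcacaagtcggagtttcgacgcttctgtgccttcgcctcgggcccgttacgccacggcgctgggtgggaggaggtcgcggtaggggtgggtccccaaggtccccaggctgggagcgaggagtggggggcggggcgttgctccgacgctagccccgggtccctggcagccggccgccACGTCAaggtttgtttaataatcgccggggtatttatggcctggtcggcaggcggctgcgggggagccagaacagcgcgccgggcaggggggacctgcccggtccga
In *Tex37* (chr6:70918873-70919172, minus strand) the X-box letters began 120 bases before the start, in *Tex33* (chr15:78395863-78396162, minus strand) 36 bases before it. *Tex36* (chr7:133602066-133602365, minus strand) held the X-box letters 19 bases before its start and the CRE letters 28 bases after it. *Spata32* (chr11:103218383-103218682, minus strand) and *Spata18* (chr5:73651130-73651429, plus strand) held the CRE letters 69 and 57 bases before their starts.

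How much of each transcript the testis held was first asked in WT. Per kilobase of exon, *Spata4* had the highest level at both ends of the time course, 531 CPM per kb at day 20 (range 372 to 812, n = 4) and 873 CPM per kb at day 26 (849 and 898). At day 26 it was followed by *Tex40*, which encodes CATSPERZ, a subunit of the sperm calcium channel, at 204 and 221 CPM per kb. Next came *Tex101*, a germ cell surface glycoprotein needed for the maturation of the sperm protein ADAM3, at 153 and 170 CPM per kb, and *Spata16*, an acrosome formation gene, at 141 and 157 CPM per kb, and these neighbours overlapped. *Tex33* (123 and 139 CPM per kb) and *Spata20* (128 and 132 CPM per kb) also overlapped. At day 20 the last 2 were far down the order, with means of 0.84 and 1.75 CPM per kb, whereas *Tex101* came next after *Spata4* with 318 and *Tex40* followed with 132. At the other end, *Tex37* had no count in any WT library of day 20, which with 3 counts as the limit allows up to 0.316 CPM in the shallowest library. Of the exon bases of *Tex40*, 46.5% are shared with the same-strand gene Kcnk4, and 80.5% of *Spata22* and 41.9% of *Spata24* are shared with other genes. The authors' counting left out read pairs that fit several genes, so the levels per kb of these 3 genes, taken over the full exon length, may be too low, and the rank of *Tex40* with them.

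Between days 20 and 26 in WT, 34 of the 49 tested genes rose and 6 fell, where 24.4% of all 17170 tested genes rose and 18.1% fell. The rise was large: 21 of the 49 (42.9%) were higher by 16-fold or more, against 6.33% of all tested genes. Markers of cell types moved over the same days in WT. All 8 round (median log2 fold change 6.83) and all 8 elongating spermatid markers (median 9.71) and all 5 Leydig markers (median 2.16) were called higher, while 4 of 6 spermatogonial, 3 of 6 Sertoli and 3 of 4 peritubular markers were called lower. Of the 8 spermatocyte markers 5 were called higher and 1 lower. The steepest rises were of genes near the limit of detection at day 20. *Tex37* went from 0 counts in 4 libraries to 29.3 and 13.1 CPM, which is at least 393-fold higher. *Tex29* had 1 count among the 4 libraries of day 20 and 50.1 and 51.1 CPM at day 26. Its ratio was 2700, with an exact 95% counting interval from 484 to 107000. *Spata3* had 3 counts at day 20, all in WT_d20_4, and 68.1 and 48.4 CPM at day 26, a ratio of 1060 (counting interval 361 to 5120). *Tex35* read 0, 0, 0.173 and 0.216 CPM at day 20 and 59.1 and 48.4 CPM at day 26 (8.81 ± 1.02 SE on the log2 scale, adjusted p = 1.32e-06). For *Spata25* (11.5 and 11.2 CPM at day 26) the ratio was 608 (counting interval 108 to 24100) and for *Tex43* (30.5 and 22.7 CPM) 481 (counting interval 164 to 2340). These 6 genes were chosen for the largest rises between these same libraries, so that their groups did not overlap follows from the choice.

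**Figure D1:**
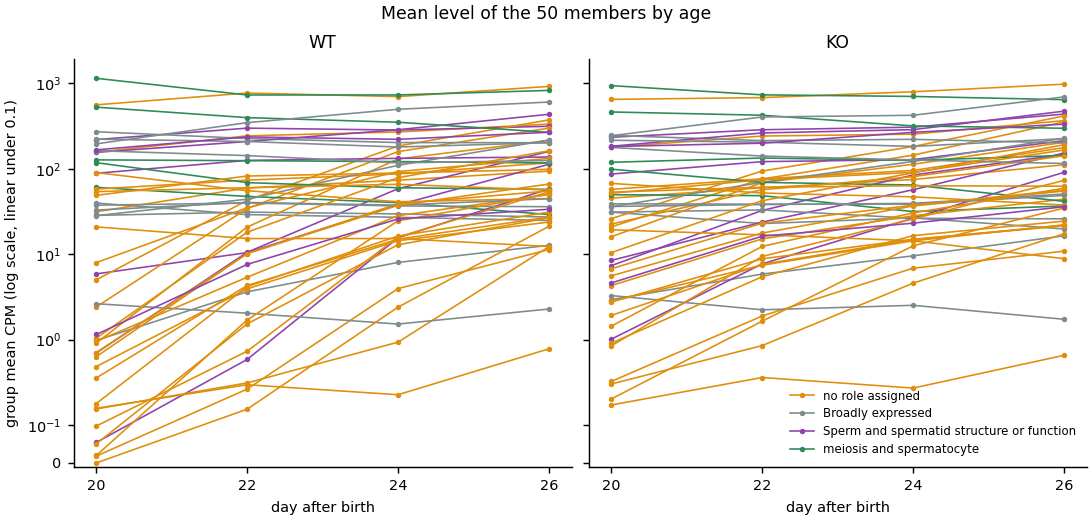
Mean CPM of each of the 50 genes (y axis, logarithmic above 0.1 and linear below it) at days 20, 22, 24 and 26 (x axis) in WT and KO, 1 line per gene, coloured by role group. Most lines without an assigned role start under 10 CPM at day 20 and rise. Those of the meiosis and spermatocyte group end lower at day 26 than at day 20, except *Tex14* in KO (119 and 143 CPM).

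The age changes were also read by role. All 8 genes of sperm and spermatid structure or function rose in WT. *Spata19*, a protein of sperm mitochondria, rose from 0.347 to 1.37 CPM in the 4 libraries of day 20 to 185 and 135 CPM (log2 fold change 7.83 ± 0.86, adjusted p = 7.48e-07). *Tex38*, which works with the palmitoyltransferase ZDHHC19 in spermatids, rose by 4.79 ± 0.58 on the log2 scale and *Spata18*, the mitochondria-eating protein, by 4.24 ± 0.44. *Spata6*, a gene of the sperm neck, was already at 156 ± 29.1 CPM (SD, n = 4) at day 20 and rose to 435 CPM (log2 fold change 1.48 ± 0.16). *Tex40*, *Spata33* and *Spata16* rose by 0.69, 0.63 and 0.52. Of the 25 tested genes without an assigned role 22 rose and 2 fell. Of the 11 broadly expressed genes 4 rose, 1 fell and 6 did not pass the test. The 4 were *Spata7*, a gene of the photoreceptor cilium (log2 fold change 2.95 ± 0.32), *Spata2l* (3.64 ± 0.46), *Tex2* (1.63 ± 0.26) and *Tex261* (0.44 ± 0.13).

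None of the 5 meiosis and spermatocyte genes rose, and 3 of them fell. *Spata22*, the partner of MEIOB in meiotic recombination, read 55.3, 93.2, 47.1 and 46.9 CPM at day 20 and 30.2 and 28.1 CPM at day 26 (log2 fold change -1.05 ± 0.22, adjusted p = 0.000656). *Tex101* read 409 to 787 CPM at day 20 and 282 and 253 CPM at day 26 (-0.98 ± 0.22). *Tex11*, an X-linked gene of meiotic crossover formation, read 72.1 to 224 CPM at day 20 and 64.0 and 50.9 CPM at day 26 (-1.03 ± 0.36, adjusted p = 0.0273). In all 3, WT_d20_2 was the highest library of the study, and without it *Tex11* changed by -0.57 and no longer passed the test (adjusted p = 0.0579), while *Spata22* and *Tex101* still passed. *Tex11* also lost its call without WT_d26_1 or WT_d26_2, and *Tex11*, *Tex101*, *Tex16* and *Spata13* lost theirs when the WT libraries of days 20 and 26 were fitted alone (adjusted p = 0.142, 0.0545, 0.085 and 0.0747). *Tex14*, needed for the bridges between germ cells, changed by -0.12 ± 0.13 and *Tex15*, which acts in transposon silencing and meiosis, by -0.47 ± 0.33, and neither passed. The other 3 that fell were the X-linked *Tex16* (-1.01 ± 0.28) and *Tex13* (-0.76 ± 0.16) and the exchange factor gene *Spata13* (-0.68 ± 0.15). The 4 tested X-linked genes did not move one way: *Tex13a* rose by 7.45 ± 0.69, from 0.0578 to 0.288 CPM to 34.4 and 27.8 CPM.

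**Figure D2:**
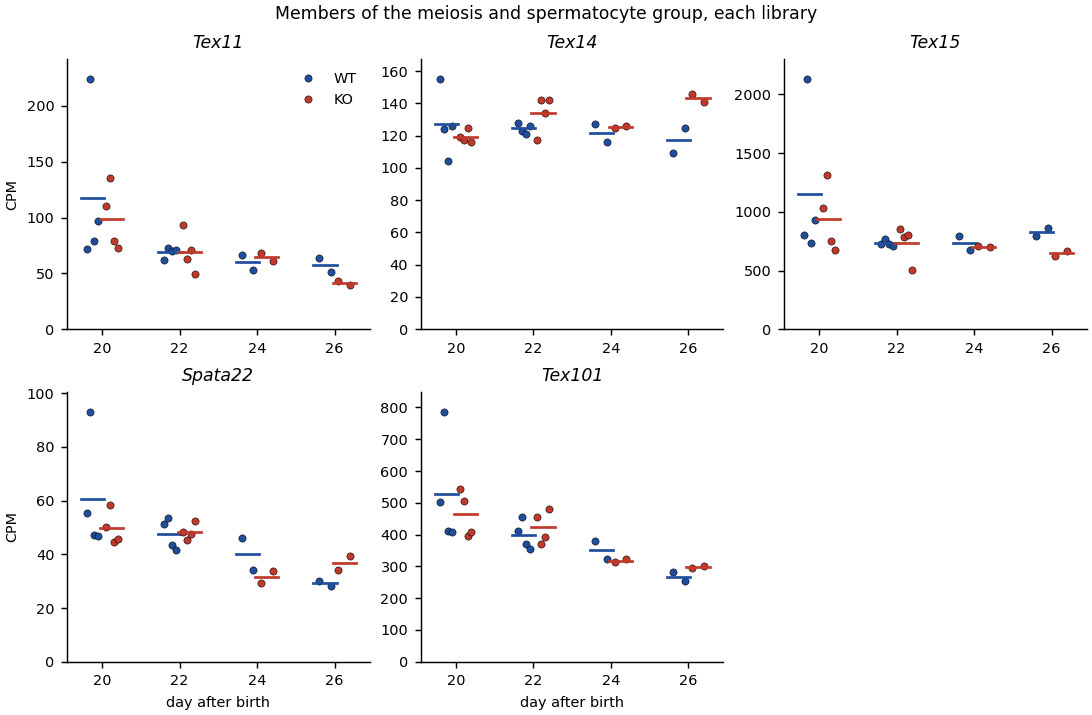
CPM (y axis, linear from 0) of the 5 meiosis and spermatocyte genes in each library by day (x axis), WT in blue and KO in red, with a bar at each group mean. WT_d20_2 is the highest point of *Tex11* (224 CPM), *Tex15* (2130 CPM), *Spata22* (93.2 CPM) and *Tex101* (787 CPM), and WT and KO points lie in one range at days 20 and 22.

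The rise came in steps. From day 22 against day 20 in WT, 21 of the 49 rose (12.9% of all tested genes rose) and 3 fell (7.15% of all fell). The 21 included *Tex13a* (log2 fold change 4.55 ± 0.70), *Spata31* (4.49 ± 0.82), *Tex33* (4.08 ± 0.74) and *Spata45* (4.01 ± 0.72). From day 22 to day 24, 17 rose, where 5.88% of all rose. Among the 17, *Spata3* (4.71 ± 0.91), *Tex35* (4.47 ± 0.81), *Spata25* (3.84 ± 0.64), *Tex37* (3.85 ± 1.09), *Spata18* and *Spata7* had not passed edgeR's test in the step before, where DESeq2 called *Spata3*, *Tex35* and *Spata25*. Without WT_d24_1 the count of 17 was 2, and with the replicate number as a block it was 0. With the WT libraries of the 2 days fitted alone 24 rose and 1 fell, and 1561 genes were called in all. From day 24 to day 26, 1 gene passed, *Spata32*, where 0.262% of all tested genes rose. It read 1.12 and 0.747 CPM at day 24 and 14.5 and 10.0 CPM at day 26 (log2 fold change 3.71 ± 0.65, adjusted p = 0.0186), but not without WT_d24_1, WT_d24_2 or WT_d26_1. With the libraries of these 2 days fitted alone 13 genes passed, among 702 in all.

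*Spata2*, *Spata5*, *Tex9*, *Tex10*, *Tex14* and *Tex15* were called in neither genotype between days 20 and 26 by edgeR on all libraries, and DESeq2 called *Tex14* in KO. With the KO libraries of these 2 days fitted alone, edgeR called 44 genes of the group in KO, among 9386 genes in all. A missing call does not show that a gene stayed level. *Spata5* read 272 CPM at day 20 and 202 CPM at day 26 in WT (-0.43 ± 0.20, adjusted p = 0.0872). *Tex15* read 1150 and 829 CPM in WT and 943 and 645 CPM in KO (-0.55 ± 0.33, adjusted p = 0.169), and *Tex14* changed by 0.27 ± 0.12 in KO (adjusted p = 0.0742). *Tex9* was at 54.1 CPM at day 20 and 56.4 CPM at day 26 in WT (0.06 ± 0.16) and at 53.3 and 62.6 CPM in KO (0.23 ± 0.16). Rises of lesser size were called in genes with ample counts at day 20. *Spata1* went from 156 to 334 CPM (1.10 ± 0.17), *Spata4* from 561 to 923 CPM (0.72 ± 0.25), *Spata24* from 58 to 118 CPM (1.02 ± 0.25) and *Tex22* from 48.9 to 98.6 CPM (1.01 ± 0.14). *Tex28*, which was not tested, averaged 0.157 CPM at day 20 and 0.779 CPM at day 26 in WT.

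In KO the same contrast of ages gave 35 genes higher and 7 lower, where 27.2% of all tested genes were higher and 24.9% lower. All 34 genes that rose in WT also rose in KO, and 5 of the 6 that fell in WT also fell in KO. *Spata22* was the sixth, at 34.1 and 39.3 CPM in KO at day 26 and 44.6 to 58.3 CPM at day 20, with a change of -0.44 ± 0.22 (adjusted p = 0.0918). The fitted rise differed in size between the genotypes in some genes and little in others. *Spata19* rose by 4.33 ± 0.69 in KO and by 7.83 ± 0.86 in WT, *Spata31* by 3.67 ± 0.70 and 7.85 ± 0.89, and *Tex13a* by 3.50 ± 0.51 and 7.45 ± 0.69. For *Spata32* the 2 values were 5.79 in KO and 6.14 in WT, and for *Spata18* 4.17 and 4.24. At day 26 *Spata31* was at 192 and 217 CPM in KO and at 183 and 247 CPM in WT, so the groups overlapped. Whether the KO difference changed between days was tested jointly. In that test edgeR called none of the 49 genes and DESeq2 called *Tex13a* and *Tex22*.

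The main question of the study was what the loss of ATAD2 changed. At day 20, 13 of the 49 genes were called higher in KO and 0 lower, where 2.98% of all tested genes were called higher and 0.361% lower. These were *Spata9*, *Spata17*, *Spata19*, *Spata20*, *Spata21*, *Spata31*, *Spata45*, *Tex13a*, *Tex21*, *Tex24*, *Tex26*, *Tex33* and *Tex36*. *Spata31* read 0.314, 0.527, 0.289 and 2.52 CPM in WT and 6.75, 1.90, 21.7 and 33.8 CPM in KO, a log2 fold change of 4.11 ± 0.83 (adjusted p = 0.011). *Spata19* read 0.550, 0.527, 0.347 and 1.37 CPM in WT and 3.41, 0.981, 9.11 and 15.9 CPM in KO (3.39 ± 0.83, adjusted p = 0.0269). In both genes KO_d20_3 and KO_d20_4 were far above all WT libraries and KO_d20_2 lay within the WT range.

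*Tex33* read 0.864, 0.316, 0.462 and 2.52 CPM in WT and 5.80, 1.83, 10.2 and 24.0 CPM in KO (log2 fold change 3.29 ± 0.75, adjusted p = 0.0186). *Spata21*, a gene with EF-hand calcium-binding motifs, read 1.05 to 4.75 CPM in WT and 4.71 to 45.8 CPM in KO (3.08 ± 0.65, adjusted p = 0.0127). The pattern of libraries was the same as in *Spata19*. *Tex13a*, *Tex21* and *Spata17* were the 3 genes whose groups did not overlap, where 3.03% of all tested genes were higher without overlap. *Tex21* read 7.15, 9.16, 6.30 and 9.29 CPM in WT and 21.2, 11.3, 24.4 and 33.2 CPM in KO (1.51 ± 0.31, adjusted p = 0.0113). *Tex13a* read 0.157, 0.211, 0.0578 and 0.288 CPM in WT and 0.798, 0.392, 2.84 and 3.66 CPM in KO (3.44 ± 0.76, adjusted p = 0.0146). *Spata17*, a gene of an IQ motif protein, had the smallest difference of the 13, with 22.1 to 40.1 CPM in WT and 40.9 to 53.1 CPM in KO (0.53 ± 0.14, adjusted p = 0.0403).

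The other 6 of the 13 had log2 fold changes from 2.22 in *Spata9* to 3.23 in *Tex36*, and in each 3 of the 4 KO libraries were above every WT library. *Spata20* read 5.50, 1.26, 5.03 and 8.28 CPM in WT and 14.4, 7.85, 30.2 and 52.1 CPM in KO (2.34 ± 0.53, adjusted p = 0.0182). *Tex36* read 0.314, 0.316, 0.173 and 2.02 CPM in WT and 3.77, 0.981, 7.99 and 14.3 CPM in KO (adjusted p = 0.0221). *Spata45*, the shortest transcript of the group, read 0.786, 0.316, 0.0578 and 1.37 CPM in WT and 3.84, 0.850, 5.75 and 11.9 CPM in KO (3.14 ± 0.74, adjusted p = 0.0221). In all 3 genes KO_d20_2 was the one KO library inside the WT range. *Tex26* (2.60 ± 0.60, adjusted p = 0.0183), *Tex24* (2.86 ± 0.77, adjusted p = 0.0485) and *Spata9* (2.22 ± 0.60, adjusted p = 0.0492) were at 4.67, 6.10 and 7.86 CPM in KO_d20_4, and at most at 0.948, 0.936 and 1.26 CPM in WT. *Spata9* and *Tex24* passed the test narrowly and lost the call in 20 and 19 of the 24 fits that left out a library. *Spata17* lost it in 13 of them, and the other 10 genes in 2 to 5.

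The count of 13 depended on the libraries in the fit. It was 0 without WT_d20_3, 1 without KO_d20_4, 2 without WT_d20_1, 4 without KO_d20_3 and 4 without WT_d20_2, and it was 0 when the 8 libraries of day 20 were fitted alone. With DESeq2 it was 20, 19 higher and 1 lower, and included all 13, in a fit that called 5.25% of all tested genes. The direction was higher in KO in every one of the 24 fits that left out a library, for each of the 13 genes.

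**Figure D3:**
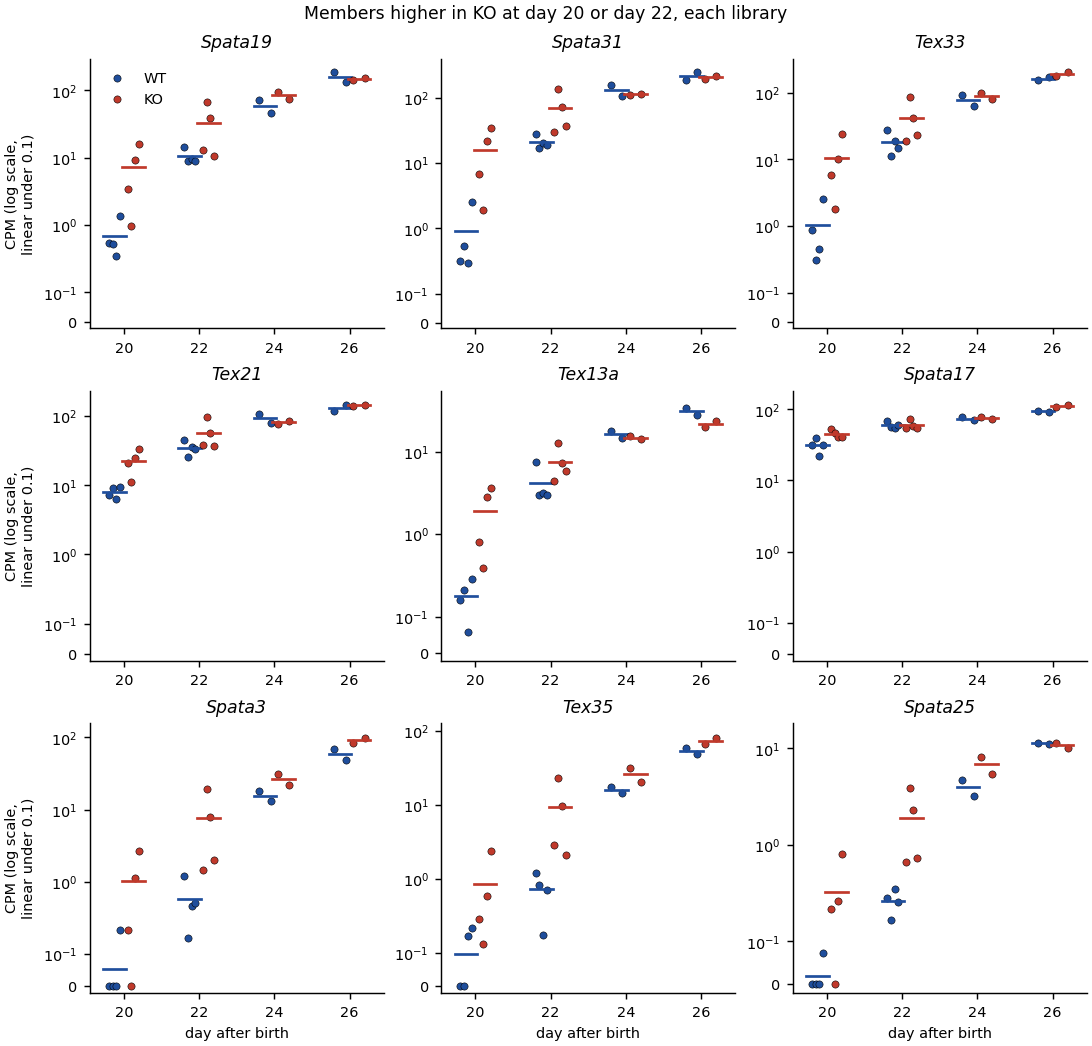
CPM (y axis, logarithmic above 0.1 and linear below it) of 9 genes called higher in KO at day 20 or 22, in each library by day (x axis), WT in blue and KO in red, with a bar at each group mean. At day 20 the KO points of *Spata19*, *Spata31* and *Tex33* spread from the WT range upward, and at day 26 the KO and WT points of most panels lie close together.

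Markers of spermatids moved with these genes. At day 20, 7 of the 8 round spermatid markers were called higher in KO (median log2 fold change 2.95), and their sum was 22.5 to 67.0 CPM in WT and 55.1 to 177 CPM in KO. Of the 8 elongating spermatid markers 3 were called higher (median 3.40), with sums of 2 to 9.14 CPM in WT and 6.02 to 111 CPM in KO. Of the 8 spermatocyte markers 2 were called higher, and of the 6 spermatogonial and 6 Sertoli markers 0 were called. Markers of interstitial and peritubular cells also differed in level, with 0 called. The 5 Leydig markers were all higher in KO by their fitted values (median 1.07), with sums of 246 to 349 CPM in WT and 258 to 651 CPM in KO. The 4 peritubular markers were all lower (median -0.48), with sums of 581 to 1010 CPM in WT and 492 to 639 CPM in KO. The KO libraries ranked KO_d20_4, KO_d20_3, KO_d20_1 and KO_d20_2 in both spermatid sums and in the Leydig sum, and 12 of the 13 genes, all but *Spata17*, ranked the 4 libraries in this order, as did 21 of all 49. The 13 were chosen by their levels in these libraries, so this order is a description. Summed over the 13 genes, KO libraries had 79.1 to 295 CPM and WT libraries 37.6 to 66.7 CPM. The gap between these sums rests on *Spata17*, which gave 46.2 of the 79.1 CPM in KO_d20_2 and 31.7 of the 66.7 CPM in WT_d20_4. Whether the genotype changed these transcripts or the number of spermatids at day 20 was not tested, nor was the part of the other cell types.

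**Figure D4:**
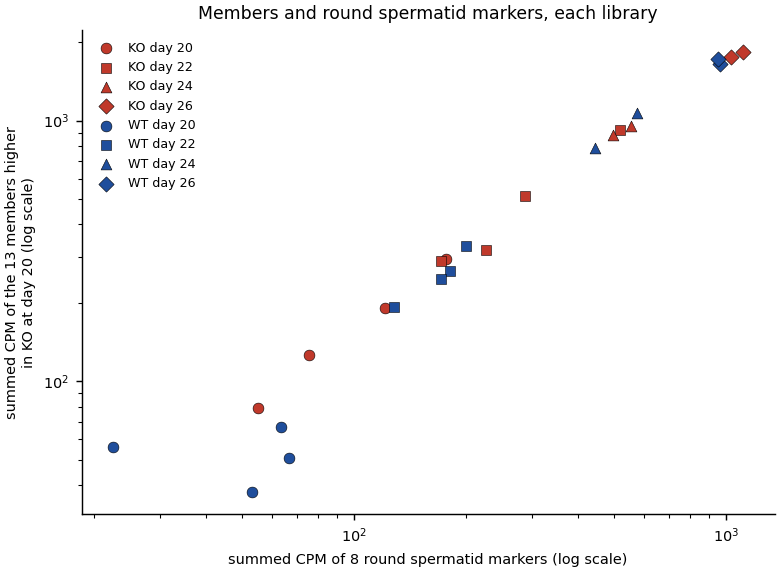
Sum of CPM over the 13 genes called higher in KO at day 20 (y axis, logarithmic) against the sum over 8 round spermatid markers (x axis, logarithmic), 1 point per library, colour by genotype and shape by day. The KO libraries of day 20 (79.1 to 295 CPM on the y axis) lie between WT libraries of day 20 (37.6 to 66.7 CPM) and of day 24 (785 to 1070 CPM), near those of WT at day 22 in 2 cases. *Spata17* gave 46.2 of the 79.1 CPM in KO_d20_2 and 31.7 of the 66.7 CPM in WT_d20_4.

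A set of genes that was chosen in libraries outside the day 20 comparison gave a further description. It rests on the 17 calls that the replicate block ended. The 17 genes that rose in WT from day 22 to 24 were all higher in KO at day 20 by their fitted values, 8 of them called (47.1%). Among all 1010 genes that rose in this step 921 were higher at day 20 and 24% were called. For the 17 the median was 3.08 on the log2 scale, or 2.84 with *Tex37* (12 counts in KO, 0 in WT) at its lower bound, against 1.63 for the 1010 genes. At day 26, 0 of the 17 were called and 10 were higher, with a median of 0.10. Of the 1010 genes, 0 were called higher and 546 were higher, with a median of 0.02. Among the other 32 genes 5 were called at day 20, with a median of 0.11.

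At day 22, 4 genes were called higher in KO and 0 lower, where 1.26% of all tested genes were called higher and 1.25% lower. EdgeR did not call them at day 20, where *Spata25*, *Spata3* and *Tex29* held 1, 3 and 1 counts in WT (adjusted p = 0.171, 0.294 and 0.113), while DESeq2 called these 3 there. All 4 were among the genes that rose in WT from day 22 to 24, a contrast that shares the WT libraries of day 22. *Tex35* read 1.20, 0.836, 0.175 and 0.716 CPM in WT and 2.90, 23.0, 9.69 and 2.08 CPM in KO (log2 fold change 3.72 ± 0.75, adjusted p = 0.016). *Spata3* read 1.20, 0.167, 0.466 and 0.511 CPM in WT and 1.45, 19.4, 7.97 and 2.01 CPM in KO (3.69 ± 0.85, adjusted p = 0.0286). KO_d22_2 was by far the highest library in both, and every KO library was above every WT library.

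*Spata25* read 0.282, 0.167, 0.349 and 0.256 CPM in WT and 0.666, 3.85, 2.31 and 0.737 CPM in KO, also without overlap (2.78 ± 0.60, adjusted p = 0.0195). *Tex29* read 3.59, 1.09, 0.990 and 1.13 CPM in WT and 2.60, 28.8, 14.7 and 3.28 CPM in KO (2.88 ± 0.73, adjusted p = 0.0419), and its groups overlapped. At day 22 the groups of 5 genes were higher in KO without overlap (3.64% of all tested genes), *Spata18* and *Spata31* being the other two, and those of *Spata13* were lower (4.45% of all). The elongating spermatid markers again moved with these genes. Their sum was 44.6 to 94.8 CPM in WT and 91.3, 616, 273 and 107 CPM in KO_d22_1 to KO_d22_4, and 4 of 8 were called, while 0 of the 8 round spermatid markers were (sums of 128 to 200 CPM in WT and 171 to 517 CPM in KO). The 4 peritubular markers were all lower in KO with 0 called (median -0.67, sums of 481 to 714 CPM in WT and 243 to 498 CPM in KO). *Tex29* lost its call in 17 of the 24 fits that left out a library, and the other 3 genes in 3 or 4. The number of genes called was 0 without KO_d22_2, WT_d22_3 or WT_d22_4, 1 without WT_d22_2, 7 without KO_d22_1 or KO_d22_4, and 0 when the 8 libraries of day 22 were fitted alone.

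At days 24 and 26 no gene of the group was called by edgeR on all libraries, where 0.0874% and 0.0466% of all tested genes were called. At an unadjusted p under 0.05, 2 passed at day 24 (4.08%, against 5.23% of all tested genes) and 5 at day 26 (10.2%, against 11.5% of all), so neither share was above that of all genes. DESeq2 called *Tex22* and *Tex264* at day 26, where it called 0.891% of all. The widest differences of day 24 were in *Tex37*, with 1.68 and 3.12 CPM in WT and 18 and 7.06 CPM in KO (log2 fold change 2.39 ± 0.89, adjusted p = 0.717), and *Spata32*, with 1.12 and 0.747 CPM in WT and 6.22 and 2.94 CPM in KO (2.28 ± 0.64, adjusted p = 0.358). The sums of elongating spermatid markers were 463 and 526 CPM in WT and 805 and 1610 CPM in KO on that day. With 2 libraries per group, 17 genes were higher and 4 lower in KO without overlap at day 24, where 22.6% and 21.4% of all tested genes were.

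At day 26 the counts without overlap were 25 higher and 11 lower, where 27.8% and 31.1% of all were. Marker sums differed too, with 0 markers of these lists called. In WT and KO they were 4790 to 5190 and 5890 to 5970 CPM for spermatocytes, and 953 to 965 and 1030 to 1110 CPM for round spermatids. They were 279 to 302 and 235 to 254 CPM for Sertoli, 351 to 418 and 260 to 303 CPM for peritubular, and 1060 to 1740 and 841 to 967 CPM for Leydig cells. Their part was not tested. *Tex22* had the lowest p of the group on that day, with 99.1 and 98.1 CPM in WT and 155 and 177 CPM in KO (0.75 ± 0.17, adjusted p = 0.0862). All 4 tested X-linked genes were lower in KO at day 26 without passing the test. The log2 fold changes were -0.51 ± 0.56 in *Tex13a*, -0.47 ± 0.40 in *Tex11*, -0.47 ± 0.18 in *Tex13* and -0.25 ± 0.31 in *Tex16*, with adjusted p-values of 0.298 to 0.795. When the 4 libraries of day 26 were fitted alone, *Tex11* (-0.46, adjusted p = 0.0328) and *Tex13a* (-0.50, adjusted p = 0.0439) were called lower, in a fit that called 11 of the 49 genes and 2104 genes in all.

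**Figure D5:**
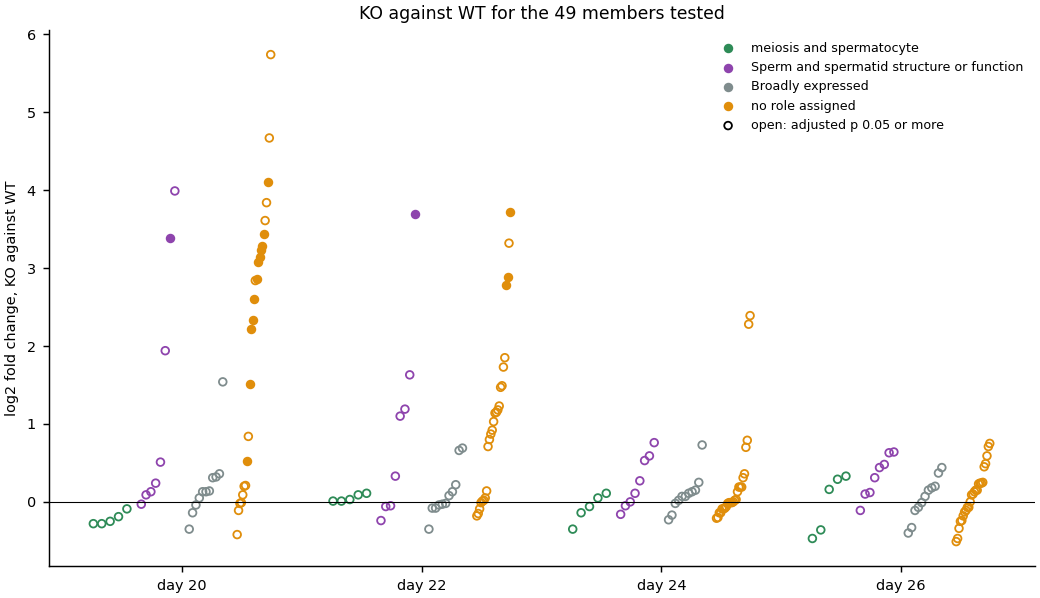
Log2 fold change of KO against WT (y axis) of the 49 tested genes at each day (x axis), ordered by value within a role group, filled where the adjusted p was under 0.05. Filled points are at days 20 (13 genes) and 22 (4 genes), and the highest value falls from 5.74 at day 20 (*Tex29*, 1 count in WT) to 0.75 at day 26 (*Tex22*).

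Averaged over the 4 days, 9 genes were called higher in KO and 1 lower, where 3.52% of all tested genes were called higher and 3.56% lower. *Spata25* (log2 fold change 1.78 ± 0.41, adjusted p = 0.0166) was called in every one of the fits that left out a library. The others were *Spata3* (2.27 ± 0.55), *Spata32* (1.27 ± 0.33), *Tex35* (1.93 ± 0.47), *Tex29* (2.29 ± 0.59), *Tex37* (2.77 ± 0.74), *Spata19* (1.36 ± 0.38), *Spata31* (1.39 ± 0.39) and *Tex33* (1.23 ± 0.36). These means take in day 20, where WT held 0 counts of *Tex37*, 1 of *Spata25*, 1 of *Tex29* and 3 of *Spata3*, so their size is uncertain. They do not mean a higher level at each day. *Spata31* was at -0.21 at day 24, and *Spata19*, *Spata25* and *Spata31* were at -0.11, -0.07 and -0.07 at day 26, while the rest had higher KO means at both days. *Spata13* was lower by 0.27 ± 0.07 on the log2 scale, (adjusted p = 0.0357). Its log2 fold change was -0.35 at day 20, where the groups overlapped, -0.35 at day 22 (20.4 to 26.4 CPM in KO and 27.2 to 30.2 CPM in WT), -0.02 at day 24 and -0.33 at day 26. The call of *Spata13* was lost in 14 of the 24 fits that left out a library, without the filter on low counts and with a replicate block, and the other 8 lost theirs in 5 to 18 of the 24. *Spata19*, *Spata31*, *Tex33* and *Tex37* also lost the call without that filter. All 8 elongating and 5 of 8 round spermatid markers were called higher in the same contrast, as was 1 of 5 Leydig markers (median 0.41), and 2 of 4 peritubular markers were called lower (median -0.49). Their part in these calls was not tested. The number of genes called was 1 without WT_d24_2, KO_d24_1 or KO_d26_2 and 22 without KO_d20_2. A joint test of whether the KO difference changed between days called 0 of the 49 genes, where 0.00582% of all tested genes were called. At an unadjusted p under 0.05, 17 passed (34.7%, against 9.06% of all tested genes), led by *Tex22*, *Tex13a* and *Spata31*, and DESeq2 called *Tex13a* and *Tex22*, with 1.59% of all.

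The KO differences were then read by role. The 5 meiosis and spermatocyte genes had log2 fold changes from -0.28 to -0.09 at day 20 and from 0.01 to 0.11 at day 22, and neither edgeR on all libraries nor DESeq2 called any of the 5 at a single day. The test of *Tex14* had an SE of 0.10 at day 20, with 155, 124, 104 and 126 CPM in WT and 119, 117, 125 and 116 CPM in KO. Of the 11 broadly expressed genes edgeR on all libraries called 0 at any single day, and DESeq2 called *Spata13* (lower) and *Spata2l* at day 20 and *Tex264* at day 26. The widest of these was *Spata2l* at day 20 (1.54 ± 0.43, adjusted p = 0.0552). *Spata2*, an adaptor of the deubiquitinase CYLD, was at 31.1 CPM in KO and 28.5 CPM in WT, *Spata5*, an AAA ATPase of ribosome maturation, at 246 and 272 CPM, and *Tex10*, a partner of PELP1, at 216 and 223 CPM. *Tex264*, a receptor for autophagy of the endoplasmic reticulum, was at 38.9 and 37.5 CPM, *Tex2* at 244 and 196 CPM, *Tex261* at 36.2 and 32.8 CPM, *Tex30* at 178 and 163 CPM, *Spata7* at 36 and 28.3 CPM, and *Spata5l1* at 3.28 and 2.63 CPM. Of the 8 sperm and spermatid genes 1 was called at day 20, *Spata19*, and 1 at day 22, *Spata3*, and 12 and 3 of the called genes had no role assigned.

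Genes that work with proteins of the group were listed as a comparison, 27 in number, of which 26 were tested. At day 20, 4 were called higher in KO and 0 lower, where 2.98% and 0.361% of all tested genes were. The palmitoyltransferase gene *Zdhhc19*, the partner of *Tex38*, was at 0 to 0.648 CPM in WT and 0.196 to 5.69 CPM in KO (3.53 ± 0.89, adjusted p = 0.0327). *Tex38* itself was at 1.15 ± 0.69 CPM (SD, n = 4) in WT and 4.62 ± 3.45 CPM in KO (1.94 ± 0.55, adjusted p = 0.0602). Of the 6 listed CatSper channel genes the pore subunits *Catsper1* (3.83 ± 0.83), *Catsper3* (3.93 ± 0.87) and *Catsper4* (3.81 ± 0.80) were called. The fourth pore subunit, *Catsper2*, was not called, although its groups did not overlap, at 35.9 to 57.9 CPM in WT and 59.6 to 76.4 CPM in KO (0.50 ± 0.14, adjusted p = 0.0581). *Tex40*, the auxiliary subunit, changed by 0.13 ± 0.21, *Catsperb* by 0.23 ± 0.19 and *Catsperd* by 0.09 ± 0.15. These 3 were already at 167, 142 and 70.6 CPM on average in WT at day 20 and *Catsper2* at 48.9 CPM, where *Catsper1* was at 0.535 CPM. *Catsper3* is also on the round spermatid marker list. At days 22, 24 and 26, 0 of the 26 were called, and over the mean of the days *Catsper3* and *Catsper4* were. Between days 20 and 26 in WT 12 of the 26 rose and 4 fell, where 24.4% and 18.1% of all tested genes did.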

How the data were processed

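The authors aligned read pairs to mm10 with STAR 2.7.11b and counted them per gene with HTSeq, using strand. Each deposited table holds the unnormalized counts of 1 library by symbol, and the version of the gene models is not given in the sources used here. Tallies of unassigned pairs were left out of library sizes (no feature 45.1% to 58.5%, not unique 4.74% to 13.7%, ambiguous 0.132% to 0.229%). All 24 libraries were fitted together, with 1 coefficient for each of 8 groups, by the quasi-likelihood test of edgeR 4.0.16 (R 4.3.3, limma 3.58.1) after TMM scaling and filterByExpr at a minimum count of 10, which left 17170 genes. Tests were two-sided, p-values were adjusted by Benjamini-Hochberg over all genes tested, and a gene was called at an adjusted p under 0.05. Errors of log2 fold changes are SE. CPM used the TMM library sizes, in which 3 counts are 0.153 to 0.316 CPM, and levels per kilobase used merged exon lengths. Genes were named if called in KO against WT, if among the 6 largest rises or falls with age or the 6 highest levels per length, if X-linked or if given a role, and others named were chosen after their values were seen. The members and lists were chosen with earlier results of these data known. Floors and intervals reflect counting error alone. No 2 libraries of a group agreed within sampling noise (28 pairs). Alternatives were DESeq2 1.42.0, RLE size factors, no filter, a replicate block, the compared groups alone and leaving out each library.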

Additional observations from a re-analysis of the deposited data

Results flagged for a closer look

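In groups of 4 libraries, 22 of 200 sets of values for the 50 genes had a highest or lowest library whose gap to the next was past the 95% critical value of Dixon's test, a mark that chance gives in about 1 in 20 sets of normally distributed values. Low counts are not so distributed, and in 3 of the 22 sets only 1 library had a count, so the 22 cannot be read against that share. WT_d22_1 was the high library in 8 of them, with 265 CPM of *Spata1* (235 to 238 CPM in the others), 14.5 CPM of *Spata19*, 234 CPM of *Spata6*, 7.46 CPM of *Spata9*, 7.46 CPM of *Tex13a*, 5.85 CPM of *Tex26*, 3.59 CPM of *Tex29* and 11 CPM of *Tex38*. Its sums of round and elongating spermatid markers (200 and 94.8 CPM) were also the highest of the WT libraries of that day. WT_d20_2 was the extreme in 5, high for *Tex11* (224 CPM), *Tex15* (2130 CPM), *Tex16* (152 CPM) and *Tex30* (252 CPM) and low for *Spata2* (15.1 CPM, against 32.6 to 33.6 CPM). WT_d20_4 was the high library in 4, at 2.52 CPM of *Spata31*, 2.02 CPM of *Tex36*, 0.216 CPM of *Spata3* and 0.0720 CPM of *Spata25*, the last 2 with no count in the other 3 libraries. The remaining 5 were *Tex29* in WT_d20_1 (0.0786 CPM), *Spata16* in WT_d20_3 (164 CPM), *Tex2* in WT_d22_2 (277 CPM), *Tex37* in WT_d22_3 (0.408 CPM) and *Tex30* in KO_d22_1 (185 CPM).

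In 7 genes every KO library was on one side of every WT library at one day and on the other side at another day. This is 14.3% of the 49 tested genes, where 10.6% of all 17170 tested genes did so. The log2 fold changes were -0.35 at day 24 and 0.33 at day 26 for *Spata22*, 0.73 and -0.40 for *Spata5l1*, -0.14 and 0.16 for *Tex101*, 0.19 and -0.25 for *Tex16*, -0.23 and 0.20 for *Tex2*, and 0.11 and -0.11 for *Tex30*. For *Tex13a* they were 3.44 at day 20 and -0.51 at day 26. These pairs of days were not tested against each other, in the joint test over days edgeR called none of the 7 and DESeq2 called *Tex13a*, and days 24 and 26 have 2 libraries per genotype.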

How the results depend on the processing

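When the compared groups were fitted alone, the number of *Spata* and *Tex* genes called for KO against WT was 0 at day 20, 0 at day 22 and 11 at day 26 (8 higher, 3 lower), with 5, 69 and 2104 genes called in all, and 13 rose in WT from day 24 to 26 (702 in all). In WT it was 31 for day 26 against day 20, 19 for day 22 against day 20 and 25 for day 24 against day 22 (3338, 1404 and 1561 in all). In KO it was 44 for day 26 against day 20 (9386 in all). The mean of the days and the joint test were not run in this way. DESeq2 called 20 at day 20, 7 at day 22, 2 at day 26, 20 over the mean of the days and 2 in the joint test, where it called 5.25%, 4.36%, 0.891%, 10.6% and 1.59% of all tested genes. Without the filter on low counts 5 were called over the mean of the days. Leaving out 1 library at a time gave 0 to 16 at day 20, 0 to 7 at day 22, 0 at day 24, 0 to 1 at day 26, 1 to 22 over the mean of the days and 0 to 2 in the joint test. For age it gave 33 to 41 (WT) and 35 to 44 (KO) for day 26 against day 20, and in WT 19 to 28, 2 to 21 and 0 to 1 for the 3 steps. Where a group is left with 1 library, that library is assumed to vary like the others. Of 43 named values 0 changed sign in any alternative, but 30 of 39 calls were lost in at least 1. The depth gave no usable test of *Tex28*.

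Replicate numbers were not taken to pair the samples. Deviations of same-numbered WT and KO libraries from their group means correlated at 0.07 to 0.41 at day 20, where 3 of the 4 WT libraries were closest to the KO library of their own number, and at -0.46 to -0.03 at day 22, where 0 were. With a replicate block 16 genes were called at day 20, 3 at day 22, 15 over the mean of the days, and 38 (WT) and 42 (KO) for day 26 against day 20, 0 for day 24 against day 22 in WT and 0 for day 26 against day 24 in WT. Among the 39 calls of named genes, the block ended those of *Spata9* at day 20, *Tex29* at day 22 and *Spata13* over the mean of the days. The cause of these shifts was not tested.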

Other observations

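The share of all counts in the 50 genes did not follow the 13 genes called at day 20. Summed over all 50, KO libraries of day 20 had 4110 to 5300 CPM and WT libraries 3500 to 6820 CPM, and the 2 KO libraries highest in the 13 genes (KO_d20_3 and KO_d20_4) were the lowest KO libraries in the sum over all 50. *Tex15*, *Tex101* and *Spata4* carry much of that sum. At day 26 the sums over all 50 were 8170 and 8510 CPM in KO and 7530 and 7690 CPM in WT.

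*Tex22*, for which no role was assigned, had its widest gap between genotypes at day 26, where edgeR did not call it (adjusted p = 0.0862) and DESeq2 did. KO and WT were at 51.9 and 48.9 CPM at day 20, 74.4 and 82.3 CPM at day 22, 90.8 and 89.3 CPM at day 24, and 166 and 98.6 CPM at day 26. Its age change was 1.68 ± 0.14 in KO and 1.01 ± 0.14 in WT on the log2 scale, and it had the lowest unadjusted p of the 49 genes in the joint test over days (0.00304, adjusted p = 0.32). Values of *Spata33* and *Spata24*, also chosen after they were seen, were not called in KO against WT by edgeR on all libraries or by DESeq2. *Spata33* was at 86.8 CPM in KO and 88.7 CPM in WT at day 20, 128 and 132 CPM at day 24, and 213 and 138 CPM at day 26 (log2 fold change 0.63 ± 0.26, adjusted p = 0.353). *Spata24* was at 57.5 and 58 CPM at day 20, 95.6 and 87.2 CPM at day 24, and 177 and 118 CPM at day 26 (0.59 ± 0.29, adjusted p = 0.445). The joint test gave adjusted p-values of 0.772 and 0.923 for them.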
